A study of Rattus norvegicus with 16 samples.

Results

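The 29 genes described here encode 19 enzymes of cholesterol synthesis, 5 regulators of that pathway and 5 proteins of sterol transport and turnover. They were taken by name from the pathway. All 29 were among the 33294 gene symbols of the count table and among the 17856 genes that passed the filter on low counts, and the smallest value of any of them in any library was 4.99 CPM, the count scaled to the size of its library. Poly(A) RNA had been sequenced from brain tissue labelled as the central amygdala, a GABAergic nucleus of the amygdala, of adult rats whose exposure around birth was either to fentanyl, an opioid made by synthesis, or to saline. There were 6 fentanyl males, 2 fentanyl females, 6 saline males and 2 saline females. All groups were sampled 1 day after the last of their sessions of a procedure that the labels abbreviate as IVSA and do not spell out. Neither strain, age in days nor litters are given, so p-values measure the spread between these animals only.

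Cholesterol is made from acetyl-CoA by way of mevalonate, the isoprenoids and squalene, which is closed into lanosterol and trimmed to cholesterol. In the adult brain nearly all cholesterol is made locally, much of it for myelin, and astrocytes make it for neurons and pass it on through lipoproteins. The pathway is controlled by SREBP transcription factors, which the escort protein SCAP carries out of the endoplasmic reticulum when sterols are low and which INSIG proteins hold back when sterols are plentiful. Liver X receptors, switched on by oxidised sterols, raise sterol export, and neurons dispose of cholesterol by 24-hydroxylation.

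Total counts per library were 12879701 to 22426428, and mitochondrial protein genes took 8.44% to 17.7% of them, with the highest share in fentanyl male replicate 2. Gad1, which makes GABA, was at 446 to 709 CPM, and the central amygdala marker Prkcd was at 11.2 to 33.3 CPM. Markers of the neighbouring striatum were also present, among them the dopamine receptors Drd1 at 92.7 to 344 CPM and Drd2 at 53.7 to 406 CPM. Slc17a7, a marker of glutamatergic neurons, had a median of 1.16 CPM but reached 68.1 CPM. The mean log2 CPM of cortical and basolateral amygdala glutamatergic markers reached 3.69 in saline males, against at most 1.83 in fentanyl libraries and 1.68 in saline females. The library names hold a number: in males, 1 to 6 for fentanyl and either 1 and 2 or 9 to 12 for saline, where replicates 1 and 2 have the low and replicates 3 to 6 the high numbers. In females the numbers are 1 and 2 for fentanyl but 10 and 11 for saline. What they stand for is not given in the sources used here, but the saline males of the 2 number sets stood apart, so the exposure results are given with and without them. In bulk tissue, fewer cells of a type and less RNA per cell cannot be told apart.

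Promoter windows were looked at as a description of what these genes share besides their pathway. Any part of the motifs in how the genes varied across libraries was not tested. RefSeq windows (assembly GRCr8) of 250 bases before to 50 bases after the start site were found for 24 of the 29 genes, 25 windows in all, since Srebf1 has 2. Stard4, Abcg1, Pmvk, Sqle and Fdft1 are named only. On both strands, CCAAT was found in 19 of the 25 windows (76.0%), against 37.5% of all 33469 windows of the table, and in 13 of 16 windows of synthesis enzymes (81.2%). GGGCGG was found in 20 of 25 (80.0%), against 33.1% of all windows. The core of the sterol regulatory element, searched as TCACNCCAC, was in 0 of 25 member windows and in 1.12% of all windows. Only exact matches were counted, so a variant of this core would be missed. The median GC content was 63.3% in the member windows and 51.7% in all windows, and its part in the motif shares was not tested. A CCAAT on one strand and a GGGCGG can share bases where they adjoin. The windows of 4 of the genes on which the results turn follow, on the strand of the gene, with CCAAT or its complement ATTGG in capitals: Lss (chr20:12118181-12118480, minus strand), Insig1 (chr4:8057720-8058019, minus strand), Srebf1, which has 2 start sites in the table (chr10:45518961-45519260 and chr10:45529115-45529414, minus strand), and Cyp46a1 (chr6:133011740-133012039, plus strand).
Lss: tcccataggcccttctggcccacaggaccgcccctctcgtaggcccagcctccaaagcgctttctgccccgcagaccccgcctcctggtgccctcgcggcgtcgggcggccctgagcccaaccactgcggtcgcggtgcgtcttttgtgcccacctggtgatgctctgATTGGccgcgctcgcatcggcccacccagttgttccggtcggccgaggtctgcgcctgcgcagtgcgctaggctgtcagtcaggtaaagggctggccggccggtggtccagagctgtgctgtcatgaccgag
Insig1: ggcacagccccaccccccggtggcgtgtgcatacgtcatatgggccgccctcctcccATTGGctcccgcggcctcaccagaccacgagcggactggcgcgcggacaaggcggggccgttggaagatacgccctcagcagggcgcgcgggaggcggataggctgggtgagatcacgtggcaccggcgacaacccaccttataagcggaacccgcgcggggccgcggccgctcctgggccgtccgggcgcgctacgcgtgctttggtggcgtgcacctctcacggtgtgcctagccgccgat
Srebf1, window 1: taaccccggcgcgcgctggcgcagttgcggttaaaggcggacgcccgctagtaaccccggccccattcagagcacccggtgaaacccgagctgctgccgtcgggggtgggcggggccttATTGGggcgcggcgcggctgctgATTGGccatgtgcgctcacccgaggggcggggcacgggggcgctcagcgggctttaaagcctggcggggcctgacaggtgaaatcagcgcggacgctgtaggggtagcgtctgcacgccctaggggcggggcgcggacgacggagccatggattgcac
Srebf1, window 2: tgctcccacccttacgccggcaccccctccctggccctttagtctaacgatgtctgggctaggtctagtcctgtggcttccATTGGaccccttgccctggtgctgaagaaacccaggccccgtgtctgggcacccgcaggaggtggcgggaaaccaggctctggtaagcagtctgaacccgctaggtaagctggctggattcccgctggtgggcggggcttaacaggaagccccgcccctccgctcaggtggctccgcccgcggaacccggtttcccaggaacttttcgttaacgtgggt
Cyp46a1: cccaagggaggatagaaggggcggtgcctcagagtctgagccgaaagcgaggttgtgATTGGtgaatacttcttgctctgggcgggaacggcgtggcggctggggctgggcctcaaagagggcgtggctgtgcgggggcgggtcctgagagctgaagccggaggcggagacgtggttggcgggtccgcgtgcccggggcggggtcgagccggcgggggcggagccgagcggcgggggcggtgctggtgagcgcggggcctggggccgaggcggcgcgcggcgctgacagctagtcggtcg
The windows of Acat2 and Abca1, which are not printed, held CCAAT on neither strand. Each printed window held at least 1 ATTGG. It began at position -82 from the start site of Lss, at position -193 in Insig1, at positions -131 and -108 in the first and -169 in the second window of Srebf1, and at position -193 in Cyp46a1. The coordinates belong to a newer assembly than rn7, on which the reads were counted.

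The first question was whether exposure around birth left these genes at another level in adulthood. Over both sexes no member passed the test (edgeR quasi-likelihood, Benjamini-Hochberg over all 17856 genes), nor did any with DESeq2 (0.487% of genes), and 2 did, Mvk and Cyp46a1, with limma voom and sample quality weights (5.77% of genes). By edgeR 14 genes were called, or 0.0784% of those tested. Of the 29 members 20 had a log2 fold change below 0, against 52.3% of all genes, with a median of -0.07 against -0.01. Among the 19 synthesis enzymes 16 lay below 0, with a median of -0.08 and a range from -0.45 to 0.06. At an unadjusted p under 0.05 there were 2 members, Mvk below 0 and Stard4 above it, against 7.27% of all genes. No member had fentanyl libraries that were all above or all below the saline libraries, a pattern shown by 0.0616% and 0.0392% of all genes. Marker lists lay off 0 in the same comparison without a call: 19 of 20 myelin markers below 0 (median -0.18), 16 of 18 astrocyte markers below 0 (median -0.15) and 16 of 16 striatal markers above 0 (median 0.52). The synthesis enzymes summed to 707 to 855 CPM in fentanyl and 701 to 984 CPM in saline libraries.

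Mvk, mevalonate kinase, had the smallest p of the 29. Its lowest, median and highest values were 12.8, 14.3 and 23.3 CPM in the 8 fentanyl libraries and 17.7, 22.4 and 25.3 CPM in the 8 saline libraries. Fentanyl male replicate 1, at 23.3 CPM, and fentanyl female replicate 1, at 22.6 CPM, lay within the saline range, and the other 6 fentanyl libraries lay below it. The log2 fold change was -0.45 ± 0.13 (SE; adjusted p = 0.399), and with voom it was -0.47 ± 0.13 (adjusted p = 0.0403).

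Acat2, the cytosolic thiolase that makes acetoacetyl-CoA for the pathway, had 16.04, 19.5 and 23.1 CPM (lowest, median, highest) in fentanyl libraries and 14.5, 22.9 and 34.1 CPM in saline libraries. The saline libraries covered the whole fentanyl range, and the log2 fold change was -0.25 ± 0.14 (adjusted p = 0.755). Hmgcs1, which makes HMG-CoA, averaged 122 ± 12.99 CPM over the fentanyl and 129 ± 13.51 CPM over the saline libraries (SD, n = 8 each), and its log2 fold change was -0.08 ± 0.08. The next enzymes were as close: -0.07 for Pmvk, phosphomevalonate kinase, 0.06 for Mvd, which makes isopentenyl diphosphate, and -0.12 for Idi1, its isomerase. Fdps, which makes farnesyl diphosphate, was at -0.06, and Ggps1, which lengthens it to geranylgeranyl diphosphate for protein prenylation, at -0.12. None of these 7 genes passed the test.

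Next come the enzymes from squalene to cholesterol. Lss, which closes squalene epoxide into lanosterol, had 52.7, 57.1 and 63.6 CPM in fentanyl libraries and 40.9, 67.4 and 75.5 CPM in saline libraries. The fentanyl libraries all lay inside the saline range, with an SD of 3.81 CPM against 13.6 CPM, and the log2 fold change was -0.08 ± 0.12 (adjusted p = 0.885). Tm7sf2, a sterol C14-reductase, was furthest from 0 in this stretch, at -0.21 ± 0.13 (adjusted p = 0.767). The other 9 enzymes, Fdft1, Sqle, Cyp51, Msmo1, Nsdhl, Hsd17b7, Ebp, Sc5d and Dhcr7, lay between -0.10 and 0.02. They carry squalene synthesis and its oxidation (Fdft1, Sqle) and the demethylation, reduction and isomerisation of the sterol rings.

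Among the 5 regulators, Srebf1, which encodes SREBP-1, had 41.2, 64.2 and 97.8 CPM in fentanyl libraries and 43.5, 88.2 and 107 CPM in saline libraries, with overlapping groups and a log2 fold change of -0.28 ± 0.21 (adjusted p = 0.818). Insig1, which retains SREBP in the endoplasmic reticulum and is itself an SREBP target, had 36.1, 42.3 and 47.4 CPM against 27.0, 47.2 and 65.1 CPM in saline, a log2 fold change of -0.08 ± 0.15. Its fentanyl libraries again lay inside the wider saline range. Srebf2, the main activator of cholesterol synthesis, averaged 131 ± 11.5 CPM over the fentanyl and 131 ± 10.3 CPM over the saline libraries (SD, n = 8 each), and was at 0.00 ± 0.07 on the log2 scale. Insig2 and Scap were at 0.04 ± 0.05 and 0.04 ± 0.06.

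In transport and turnover, Cyp46a1 and Stard4 were the members furthest above 0. Cyp46a1, the neuronal cholesterol 24-hydroxylase, had 209, 247 and 436 CPM in fentanyl libraries and 120, 185 and 340 CPM in saline libraries, a log2 fold change of 0.37 ± 0.19 (adjusted p = 0.729). All 8 fentanyl libraries were above the saline median, but saline males 1 and 2, at 266 and 340 CPM, were among the highest of all. Stard4, which moves cholesterol between membranes, had 26.1, 35.9 and 50.8 CPM in fentanyl libraries and 16.3, 30.4 and 39.9 CPM in saline libraries (0.37 ± 0.17, adjusted p = 0.685), with overlap. Abca1, the exporter that loads cholesterol onto apolipoproteins, was at -0.15 ± 0.18. Abcg1, a partner of it in export, and Nr1h2, the liver X receptor beta, were at -0.02 ± 0.08 and 0.01 ± 0.12.

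**Figure D1:**
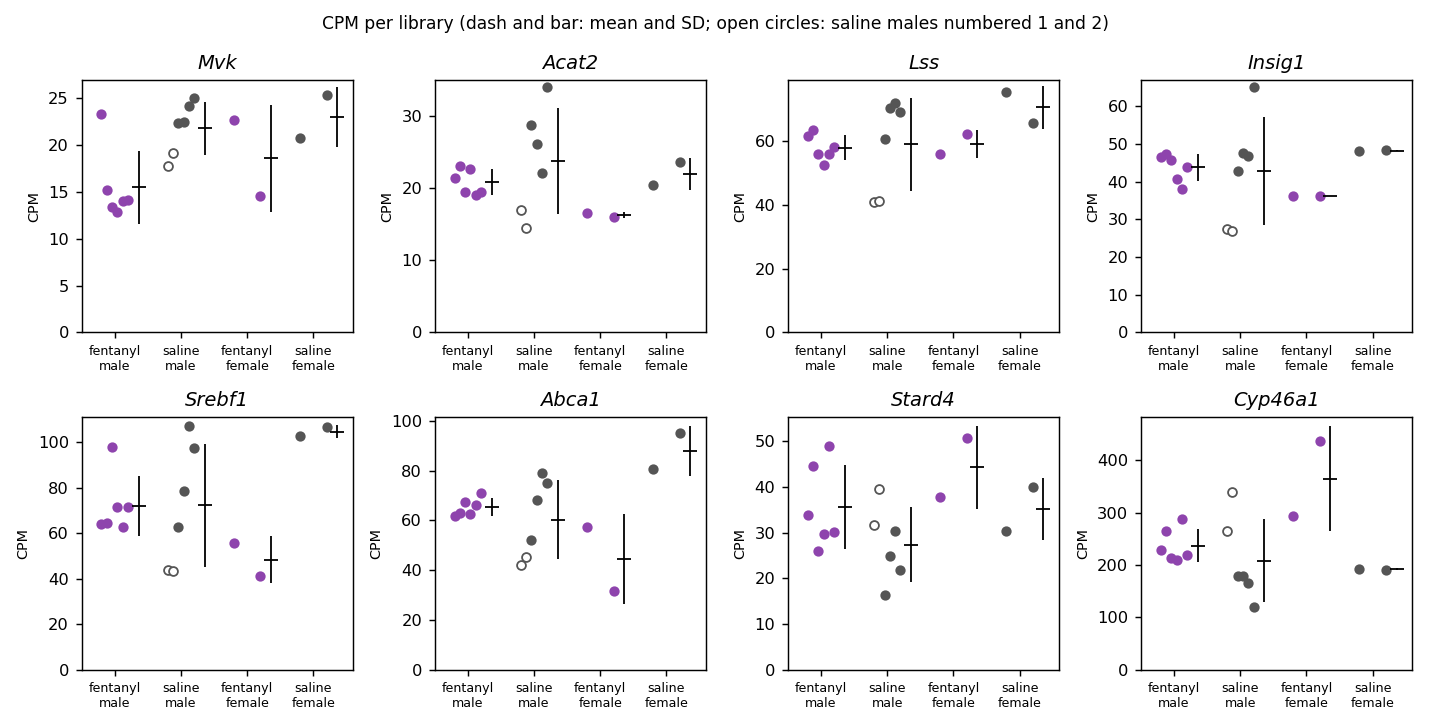
CPM of 8 members in each of the 16 libraries, by group, with the mean and SD beside the points; open circles are saline males 1 and 2. These libraries are the lowest saline males for Lss (40.9 and 41.1 CPM), Insig1 and Srebf1 and the highest for Cyp46a1 (266 and 340 CPM). All fentanyl males lie above saline males 1 and 2 for Acat2, Lss, Insig1, Srebf1 and Abca1. For each of these genes they overlap the other saline males.

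The saline males were then compared among themselves by library number. In saline males with numbers 9 to 12, 6 members were higher and 1 was lower than in saline males with numbers 1 and 2, so that 7 of 29 passed the test. Of all genes 17.9% (3201) passed, 9.66% higher and 8.27% lower. Of the 29 members 24 had a log2 fold change above 0, against 51.2% of all genes, with a median of 0.29 against 0.01. Among the synthesis enzymes 18 of 19 lay above 0, with a median of 0.33. All 4 libraries of the high numbers were above both of the low numbers for 18 members and below them for 2, against 22.2% and 22.6% of all genes.

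Lss was at 60.7, 70.3, 72.0 and 69.1 CPM in saline males 3 to 6, against 40.9 and 41.1 CPM in saline males 1 and 2, and rose by 0.73 ± 0.11 on the log2 scale (adjusted p = 0.00129). Insig1 was at 42.9, 47.7, 46.7 and 65.1 CPM, against 27.4 and 27.0 CPM (0.90 ± 0.15, adjusted p = 0.00214). Srebf1 was at 62.8, 78.8, 107 and 97.7 CPM, against 43.7 and 43.5 CPM (0.99 ± 0.22, adjusted p = 0.00775). In all 3 genes the sets were separate, and the 2 libraries with low numbers were almost equal. Acat2 was at 28.7, 26.1, 22.2 and 34.1 CPM, against 17.0 and 14.5 CPM (0.82 ± 0.16, adjusted p = 0.00433). Abca1 was at 52.1, 68.1, 78.8 and 75.0 CPM, against 41.9 and 45.1 CPM (0.65 ± 0.20, adjusted p = 0.0317). Sqle, squalene epoxidase, which performs a rate-limiting step of sterol synthesis, was at 37.8, 34.6, 35.9 and 40.1 CPM, against 29.2 and 26.4 CPM (0.42 ± 0.13, adjusted p = 0.0395). These sets were separate as well, with saline male 6 the highest library for Acat2 and Sqle. Cyp46a1 was the member that fell: it was at 180, 180, 165 and 120 CPM, against 266 and 340 CPM (-0.91 ± 0.19, adjusted p = 0.00624). Stard4 had the other separate set below, at 16.3, 24.8, 30.4 and 21.8 CPM against 31.7 and 39.5 CPM, but did not pass (-0.61 ± 0.26, adjusted p = 0.115). Srebf2, Scap and Insig2 were at 0.11, -0.11 and -0.04, with no call. The number of calls rested on few libraries. It was 1 (Lss) without saline male 2, 4 without saline male 1 (Acat2, Lss, Insig1 and Cyp46a1), and 8 without saline male 3, when Ggps1 was added. Over all genes the calls numbered 193 without saline male 2 and at most 4229 with any 1 library left out.

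Cell type markers moved with the number sets. The summed level of 20 myelin markers was 12341 to 35601 CPM in saline males 9 to 12 and 7897 to 10567 CPM in saline males 1 and 2, and 18 of the 20 passed the test, all higher. Of 18 astrocyte markers 9 passed, all higher, with sums of 4282 to 5541 CPM and 3185 to 3464 CPM. Of 14 microglial markers 5 were higher, with sums of 612 to 828.9 CPM and 475 to 522 CPM. Of 16 striatal markers 14 were lower, with sums of 2813 to 4846 CPM and 7259 to 10800 CPM. Of 9 oligodendrocyte precursor markers 6 were higher, of 12 neuron markers 3 were higher and of 12 central amygdala markers 2 were lower. Of 12 endothelial and mural markers 0 passed. Of 6 cortical and basolateral glutamatergic markers 2 were higher. The mean log2 CPM of that list reached 3.69 in saline males 9 to 12 and 1.46 in saline males 1 and 2. No marker of these lists was at 0 in any library, and the part of these markers in the differences of the cholesterol genes was not tested.

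Fentanyl males were set against each saline number set, with the same 6 fentanyl libraries in both comparisons. Against saline males 1 and 2, Insig1 was higher in fentanyl males (43.7 ± 3.64 CPM, n = 6, against 27.2 ± 0.273 CPM, n = 2; 0.69 ± 0.14, adjusted p = 0.0277), and so was Lss (58.0 ± 4.02 CPM in fentanyl males against 41.0 ± 0.121 CPM in saline males; 0.50 ± 0.10, adjusted p = 0.0289). These were the 2 members called, both higher, against 1.74% of all genes called higher. For 6 members all fentanyl males lay above both saline males, against 13.7% of all genes: Acat2, Ggps1, Lss, Insig1, Srebf1 and Abca1. Both calls were lost without saline male 1, saline male 2, fentanyl male 3 or fentanyl male 6, and 4 members were called without saline male 3. Over all genes 21 were called without saline male 2 and 1202 without saline male 3. In this comparison all 20 myelin markers lay above 0 in fentanyl males (median 1.13, 3 called), with sums of 15696 to 37009 CPM against 7897 to 10567 CPM. Of 18 astrocyte markers 15 lay above 0 (2 called), of 14 microglial markers 13 did (1 called), and of 9 oligodendrocyte precursor markers 8 did (2 called). Their part in the differences of Insig1 and Lss was not tested.

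Against saline males 9 to 12 no member passed (0.594% of all genes did), with 5 members at an unadjusted p under 0.05, against 13.5% of all genes. They were Mvk at -0.60 ± 0.16, Acat2 at -0.41 ± 0.11, Lss at -0.23 ± 0.08, Cyp46a1 at 0.55 ± 0.15 and Stard4 at 0.61 ± 0.20 on the log2 scale, with adjusted p from 0.0962 to 0.190. For Cyp46a1 the 6 fentanyl males, at 209 to 287 CPM, were all above the 4 saline males, at 120 to 180 CPM, which was so for 3.01% of all genes. All 16 striatal markers lay above 0 in the same comparison (median 1.00, 7 called), with sums of 6492 to 10637 CPM in fentanyl males against 2813 to 4846 CPM in saline males 9 to 12, and their part in the values of Cyp46a1 and Stard4 was not tested in this comparison. Mvk passed when fentanyl male 1 was left out (-0.75 ± 0.12, adjusted p = 0.0334). With 1 library left out at a time, 7 to 240 genes were called against saline males 9 to 12. Of the 29 members 23 lay below 0 (median -0.12; 51% of all genes) against saline males 9 to 12, and 5 lay below 0 (median 0.12; 48.6% of all genes) against saline males 1 and 2. Stard4, at 35.6 ± 9.12 CPM in fentanyl males, was at 23.3 ± 5.89 CPM in saline males 9 to 12 and 35.6 ± 5.52 CPM in saline males 1 and 2.

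The comparison over both sexes followed the same libraries. Without saline males 1 and 2, 4 members were called, against 6.9% of all genes (4.23% higher and 2.67% lower): Acat2 (-0.41 ± 0.09, adjusted p = 0.0189), Mvk (-0.51 ± 0.14, adjusted p = 0.0400) and Lss (-0.23 ± 0.07, adjusted p = 0.0486) were lower in fentanyl libraries and Cyp46a1 was higher (0.67 ± 0.13, adjusted p = 0.00881). In that fit every saline library is numbered 9 to 12 and every fentanyl library 1 to 6, so exposure and number set cannot be told apart in these 4 calls. Without saline males 9 to 12 no member was called (0.0229% of all genes were), 8 of 29 lay below 0 and the median was 0.04. Lss, at 0.18 ± 0.14, and Insig1, at 0.22 ± 0.18, were then above 0, whereas Mvk stayed below it at -0.28 ± 0.17. With the means of the myelin and striatal lists as covariates, Cyp46a1 was at 0.09 ± 0.08, Stard4 at -0.09 ± 0.10, Acat2 at 0.09 ± 0.10 and Mvk at -0.33 ± 0.15, and no member was called (0.0672% of genes were).

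**Figure D2:**
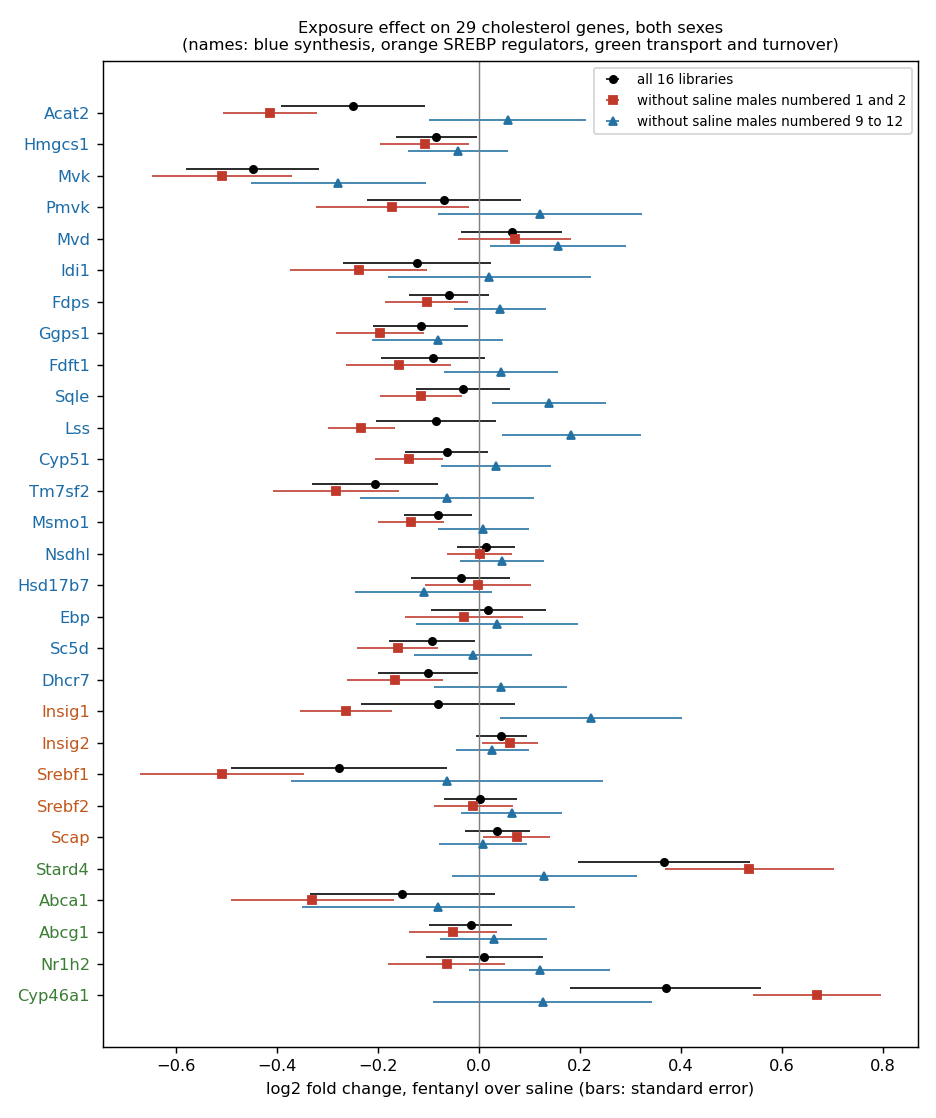
Log2 fold change (fentanyl over saline, both sexes) of each of the 29 genes with its standard error, for all 16 libraries (black), without saline males 1 and 2 (red) and without saline males 9 to 12 (blue). Most synthesis enzymes sit left of 0 in red and at or right of 0 in blue; Mvk stays left of 0 (-0.51 and -0.28) and Cyp46a1 right of it (0.67 and 0.13) in both.

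In males alone (6 against 6) no member passed with edgeR or DESeq2 and 1 did, Mvk, with voom (-0.61 ± 0.13, adjusted p = 0.0446). Of all genes 0.0392% passed with edgeR, 0.241% with DESeq2 and 0.487% with voom. The lowest, median and highest values of Mvk were 12.8, 14.1 and 23.3 CPM in fentanyl males, against 17.7, 22.4 and 25.0 CPM in saline males (-0.49 ± 0.15, adjusted p = 0.809), and it was the 1 member at an unadjusted p under 0.05, against 4.13% of all genes. Of 29 members 18 lay below 0, with a median of -0.02, against 51.7% of all genes, and 11 did without saline male 6. Without saline males 9 to 12, 3 members were called in males, all higher in fentanyl males (3.34% of all genes were): Lss (0.50 ± 0.11, adjusted p = 0.0243), Insig1 (0.68 ± 0.11, adjusted p = 0.0107) and Srebf1 (0.72 ± 0.17, adjusted p = 0.0344). Srebf1 averaged 72.0 ± 13.2 CPM over the fentanyl and 72.3 ± 27.0 CPM over the saline males (SD, n = 6 each), and Lss averaged 58.0 ± 4.02 and 59.0 ± 14.5 CPM, so that the means were close and the saline spread was the wider.

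In females (2 against 2) no member passed with edgeR (0% of all genes did), with DESeq2 (0.112%) or with voom (0%), while 4 members were at an unadjusted p under 0.05, against 14.3% of all genes. Srebf1 was at 55.7 and 41.2 CPM in fentanyl females, against 103 and 107 CPM in saline females (-1.11 ± 0.37, adjusted p = 0.333). Abca1 was at 57.3 and 31.6 CPM, against 80.8 and 95.0 CPM (-0.98 ± 0.29, adjusted p = 0.333). Ggps1 was at 34.3 and 27.3 CPM, against 41.5 and 45.1 CPM (-0.49 ± 0.16, adjusted p = 0.333). Each of the 3 had both fentanyl females below both saline females. Cyp46a1 was at 294 and 436 CPM, against 193 and 191 CPM (0.93 ± 0.35, adjusted p = 0.333), with both fentanyl females above. Such separation held for 11 members below and 2 above, the other being Mvd, against 24.7% and 24.1% of all genes, and 22 of 29 members had a log2 fold change below 0, against 50.6%. Insig1, at 36.2 and 36.1 CPM against 48.1 and 48.3 CPM, was separate with nearly equal replicates, at -0.41 ± 0.30. The myelin markers moved in the same libraries: all 20 lay below 0 in fentanyl females, with sums of 8754 to 20341 CPM against 27297 to 27668 CPM, 18 of 18 astrocyte markers did, with sums of 3245 to 3653 CPM against 4374 to 5429 CPM, and all 16 striatal markers lay above 0, with sums of 9604 to 13699 CPM against 5935 to 6986 CPM. None of these markers was at 0. With the means of the myelin and striatal lists as covariates, 10 of 29 members lay below 0 in females (median 0.051). With the myelin and astrocyte means 11 did (median 0.013). The cause of this change was not tested. Fentanyl females have library numbers 1 and 2 and saline females 10 and 11, so exposure and number set cannot be told apart in females. The spread behind these p-values comes largely from the males. Without saline males 9 to 12 the differences were the same size, and 3 members passed, against 2.84% of all genes: Srebf1 (-1.11 ± 0.20, adjusted p = 0.0276), Abca1 (-0.98 ± 0.21, adjusted p = 0.0353) and Cyp46a1 (0.93 ± 0.21, adjusted p = 0.0413).

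The effect in females differed from that in males for no member after adjustment (0% of genes were called by edgeR and by voom and 0.0224% by DESeq2, with no member by any of them). At an unadjusted p under 0.05 were Srebf1 (females minus males, -1.11 ± 0.42), Abca1 (-1.10 ± 0.33) and Ggps1 (-0.50 ± 0.18), each with an adjusted p of 0.570, against 8.23% of all genes. Of 29 members 20 lay below 0, against 50.4% of all genes. When saline males 9 to 12 were left out, 7 members passed this test, against 16.4% of all genes. They were Srebf1 at -1.83 ± 0.27, Abca1 at -1.57 ± 0.27, Insig1 at -1.10 ± 0.16, Acat2 at -0.84 ± 0.20, Lss at -0.76 ± 0.16, Ggps1 at -0.70 ± 0.16 and Cyp46a1 at 1.28 ± 0.27. In that fit the saline males are those numbered 1 and 2 and the saline females those numbered 10 and 11. A sex difference of the exposure effect and a difference between number sets therefore cannot be told apart in these 7 calls. Between females and males as such no member passed with any of the 3 tools (0.056% of genes did with edgeR), none was at an unadjusted p under 0.05 (2.52% of genes were), and the log2 fold changes ran from -0.23 to 0.34.

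**Figure D3:**
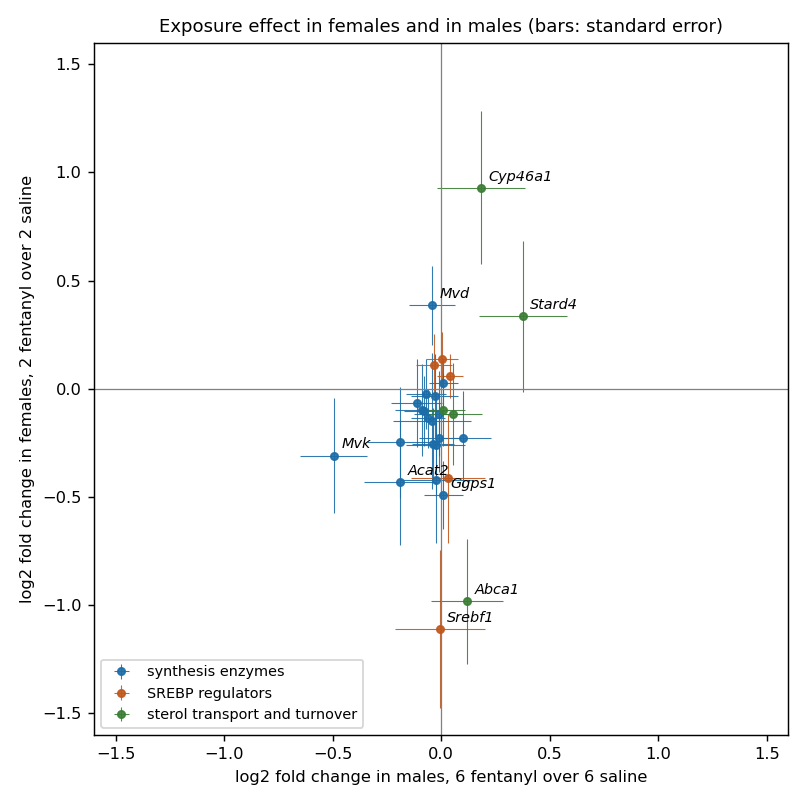
Log2 fold change of each of the 29 genes in females (vertical axis, 2 fentanyl over 2 saline) against that in males (horizontal axis, 6 over 6), with standard errors as bars and colours for the 3 roles. Srebf1 and Abca1 lie near -1 in females (-1.11 and -0.98), with long bars, and near 0 in males (-0.01 and 0.12), and Mvk lies left of 0 and below it.

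Across the 16 libraries the members varied in company, which is given as a description, since pairs share the libraries, their depth and their tissue make-up. The median Pearson correlation of log2 CPM over the 171 pairs of synthesis enzymes was 0.42, with 148 pairs above 0, against a median of -0.001 over all pairs of genes tested. The closest pairs were Ggps1 with Abca1 (r = 0.93), Srebf1 with Abca1 (0.91) and Lss with Insig1 (0.85), and the most opposed was Acat2 with Cyp46a1 (-0.86). Pairs of a synthesis enzyme with a regulator had a median of 0.04, and pairs of an enzyme with a transport gene one of -0.003.

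**Figure D4:**
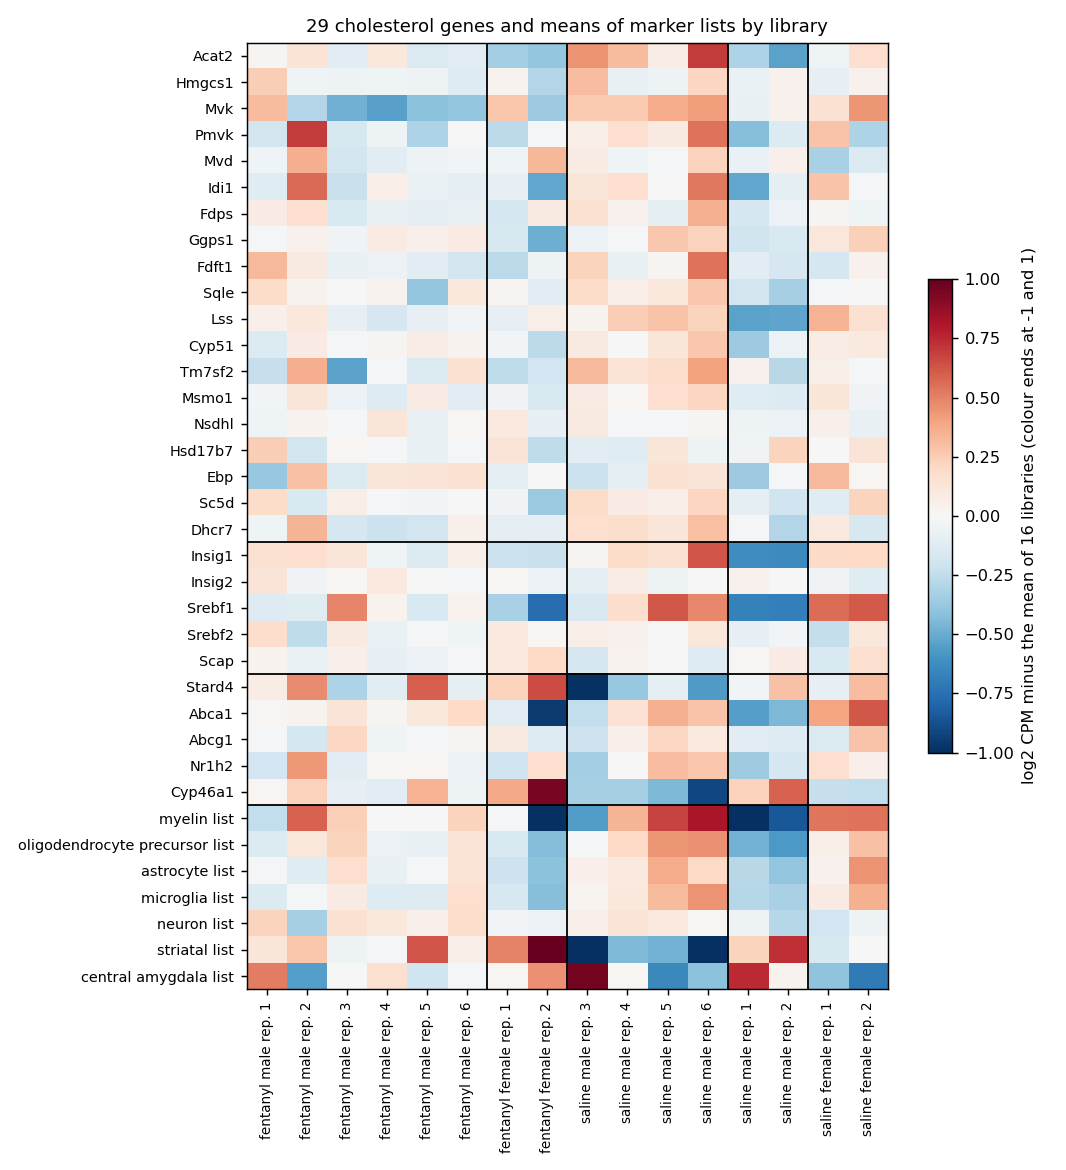
Log2 CPM of each of the 29 genes, and the mean of 7 marker lists, as the difference from the mean of the 16 libraries (colour, blue below and red above), with libraries in columns by group and saline males 3 to 6 before saline males 1 and 2. The columns of saline males 1 and 2 are blue for Lss, Insig1, Srebf1, Abca1 and the myelin list and red for Cyp46a1 and the striatal list, and saline male 6 shows the reverse.

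The members were also set against the mean log2 CPM of 3 marker lists over the 16 libraries, 87 relations in all, with permutation p-values (100000 resamples, smallest possible p = 1e-05) adjusted over the 87. Libraries were permuted without regard to exposure, sex or number set. Lists and several members differ together between the number sets, so a small p can restate that split. With myelin markers 12 members passed by both Pearson's r and Spearman's rho, 11 of them positive. With astrocyte markers 9 passed, 8 positive, and with striatal markers 10 passed, 2 positive. The share of all genes that would pass was not computed, so these counts do not set the members apart from other genes. Abca1 followed the myelin list, with r = 0.91 and rho = 0.88 (permutation p = 2e-05 and 3e-05, adjusted 2.486e-04 and 6.525e-04), r = 0.85 without the 2 libraries farthest from the median, and r = 0.89 within fentanyl and 0.95 within saline libraries. Its r was also 0.88 with astrocyte, 0.86 with microglial and 0.84 with oligodendrocyte precursor markers. Insig1 had r = 0.83 and rho = 0.87 with the myelin list (permutation p = 8e-05 and 2e-05, adjusted 6.327e-04 and 6.525e-04), r = 0.79 without those 2 libraries, and 0.62 and 0.91 within the exposures. Its r was 0.89 with oligodendrocyte precursor markers and 0.82 with microglial markers. Srebf1 followed the astrocyte list, with r = 0.92 and rho = 0.87 (permutation p = 1e-05 and 7e-05, adjusted 2.486e-04 and 8.7e-04), r = 0.89 without the 2 farthest libraries, and 0.91 within each exposure. Its r was also 0.92 with oligodendrocyte precursor, 0.90 with microglial and 0.88 with myelin markers. The relation of Lss with the myelin list did not hold within fentanyl libraries (r = 0.71 and rho = 0.69 over all, permutation p = 0.00223 and 0.00382, adjusted 0.00983 and 0.01445; r = 0.78 without the 2 farthest libraries, -0.19 within fentanyl and 0.91 within saline).

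Cyp46a1 and Stard4 followed the striatal list. Cyp46a1 had r = 0.92 and rho = 0.96 with it (permutation p = 1e-05 for both, adjusted 2.486e-04 and 6.525e-04), r = 0.97 without the 2 farthest libraries, saline males 6 and 3, and r = 0.98 within fentanyl and 0.88 within saline libraries. Stard4 had r = 0.90 and rho = 0.86 (permutation p = 1e-05 and 3e-05, adjusted 2.486e-04 and 6.525e-04), r = 0.82 without the same 2 libraries, and 0.89 within each exposure. With the myelin list Cyp46a1 had r = -0.70 and Stard4 r = -0.19. With microglial, oligodendrocyte precursor and astrocyte markers Cyp46a1 had r = -0.88, -0.83 and -0.81, and Stard4 r = -0.47, -0.41 and -0.40. Acat2 ran against the striatal list, with r = -0.88 and rho = -0.80 (permutation p = 2e-05 and 4e-04, adjusted 2.486e-04 and 0.00316), -0.78 without saline males 6 and 3, and -0.71 and -0.94 within the exposures. Its r was 0.75 with oligodendrocyte precursor, 0.74 with microglial and 0.65 with astrocyte markers.

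**Figure D5:**
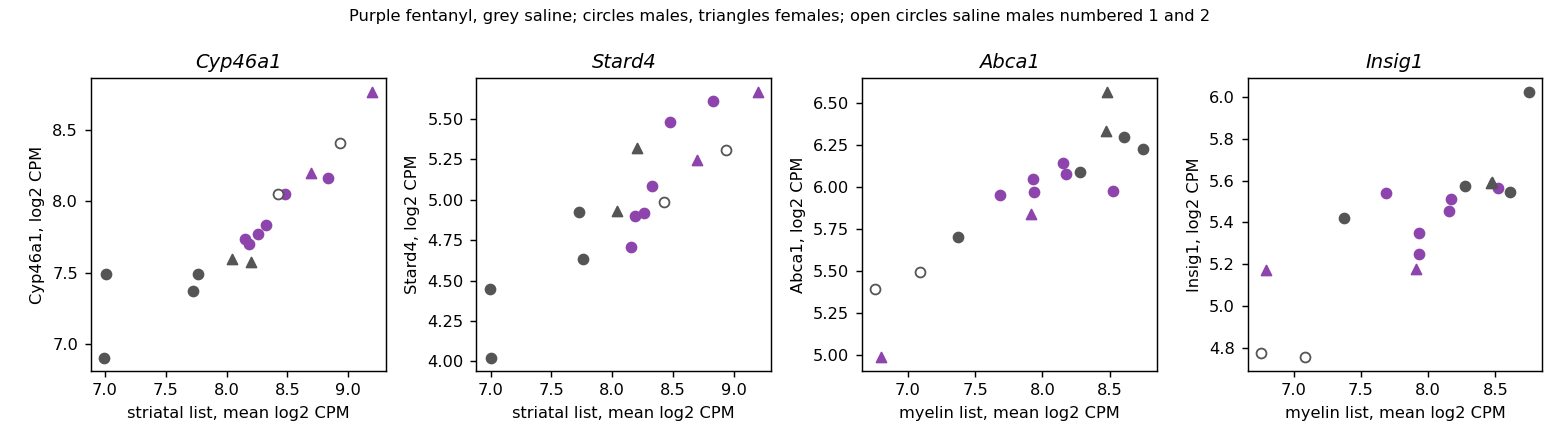
Log2 CPM of Cyp46a1 and Stard4 against the mean of the striatal markers, and of Abca1 and Insig1 against the mean of the myelin markers, with 1 point per library (fentanyl purple, saline grey, females as triangles, saline males 1 and 2 as open circles). Points of both exposures lie along the same rising bands (r = 0.92, 0.90, 0.91 and 0.83), with saline males 1 and 2 towards the high end of the striatal axis and at the low end of the myelin axis.

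Other genes of the pathway were read from 3 further lists. Over both sexes none was called. In the isoprenoid branch 14 of 19 genes had a log2 fold change above 0 (median 0.04), with the smallest p in Fntb, the beta subunit of protein farnesyltransferase (0.22 ± 0.09), and Coq2, which starts coenzyme Q synthesis (0.28 ± 0.13), and on the other side in Pggt1b (-0.13 ± 0.10) and Rabggtb (-0.07 ± 0.07), subunits of other protein prenyltransferases. In fatty acid synthesis and its SREBP targets 18 of 19 lay below 0 (median -0.11), with the smallest p in the desaturases Fads2 (-0.22 ± 0.10) and Fads1 (-0.18 ± 0.10), and Thrsp was at 0.00 ± 0.13. In sterol uptake, storage and transfer 29 of 42 lay below 0 (median -0.04), with the smallest p in Prkaa1, a catalytic subunit of AMP-activated kinase (-0.22 ± 0.08), and Gramd1c, a membrane sterol transporter (-0.32 ± 0.12). Above 0 the smallest p were those of Mbtps2, the protease that completes SREBP release (0.16 ± 0.08), and Osbpl2, an oxysterol-binding relative (0.12 ± 0.06).

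The same lists by saline number set held 9 of 19 fatty acid genes higher in saline males 9 to 12 and none lower, 10 of 42 sterol handling genes higher and 2 lower, and 1 of 19 isoprenoid genes in each direction. Of all genes 9.66% were higher and 8.27% lower. Fatty acid genes that rose were Me1 (58.8 ± 6.35 CPM, n = 4, against 25.9 ± 5.19 CPM, n = 2; 1.18 ± 0.14, adjusted p = 5.54e-04), which supplies NADPH, and Mid1ip1 (1.17 ± 0.19), Acly (0.71), Acss2 (0.52), Scd (0.79), Scd2 (0.83), Elovl5 (0.77), Elovl6 (0.50) and Pnpla3 (1.37). Among the sterol handling genes that rose were Lcat (1.52), Lipa (0.64), Npc2 (0.60), Stard5 (0.84), Osbpl1a (0.70), Mylip (0.61), Abca2 (0.92), Abcg4 (0.52) and Cyp27a1 (1.60), and those that fell were Erlin1 (-0.81) and Hsd3b7 (-0.42). In the isoprenoid branch Fnta rose (0.80 ± 0.19) and Coq2 fell (-0.57 ± 0.15). On sides with fewer than 2 calls the genes of next smallest p were Dolk (0.20 ± 0.15) and Pggt1b (-0.38 ± 0.15) in the isoprenoid branch and Acsl4 (-0.30 ± 0.20) and Acsl3 (-0.14 ± 0.13) among fatty acid genes, none of which passed.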

How the data were processed

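The authors deposited a table of raw read counts per gene symbol, with no normalization, and each column was tied to its sample through the library name. Per the labels' protocols, RNA was taken up in Trizol and poly(A) RNA went into NEBNext libraries. The submitters' processing notes name build rn7 and the tools STAR, HTSeq, Trimmomatic and DESeq2. No version, annotation or strand setting is given in the sources used here, so overlapping and antisense genes may share reads.

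The chi-square per gene was 3.84 or more in all 120 pairs of libraries, so each counted as 1 sample. Counts were fitted in R 4.3.3 with edgeR 4.0.16 (TMM, filterByExpr with the 4 groups at a minimum of 0.603 CPM, robust quasi-likelihood, Benjamini-Hochberg over all 17856 genes, threshold 0.05). Both sexes were fitted with sex as a term. Males, females and their difference were contrasts of a 4-group fit, and the number sets of a 5-group fit, so that groups of 2 shared the spread of the others. The SE follows from the log2 fold change and its F statistic. CPM are TMM-scaled, and log2 CPM used a prior count of 2. All members are named. In the 3 further pathway lists, genes past the threshold and the 2 with the smallest p in each direction are named, for the comparison over both sexes and for the number sets. The gene-level result of 1 of them is not reported here. The members and lists were chosen with earlier results of these data known, so counts over them are descriptions. The steps were tested on simulated counts. Alternatives were RLE factors, no filter, DESeq2 1.42.0, limma 3.58.1 voom with quality weights, a replicate block, no sex term, marker means as covariates, and libraries left out. Those for the number sets and for fentanyl males against each set were added after seeing the data. Promoter windows came from RefSeq (GRCr8). The depth limits precision through counting error only.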

Additional observations from a re-analysis of the deposited data

Results flagged for a closer look

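In 8 of the 58 sets of values checked (29 genes in the 6 fentanyl males and in the 6 saline males), 1 library lay far from the others of its group, where chance gives about 1 in 20. All 8 were in fentanyl males. The genes share libraries, so the 58 sets are not independent and the chance rate is only a rough guide. The rule sets a gap against the range of the group. For several genes that range is wider in saline males, where a single far library is harder to flag. Fentanyl male 2 was the highest for Pmvk (53.8 CPM, the others 26.8 to 33.3), Idi1 (29.04 CPM, the others 16.8 to 20.4), Nr1h2 (59.4 CPM, the others 38.4 to 44.5) and Mvd (18.55 CPM, the others 12.7 to 14.2). It is also the library with the highest share of mitochondrial counts, 17.7%, and the part of that share in these values was not tested. Fentanyl male 1 was the highest for Mvk (23.3 CPM, the others 12.8 to 15.2) and Hmgcs1 (148 CPM, the others 114 to 121). Fentanyl male 3 was the highest for Srebf1 (97.8 CPM, the others 62.7 to 71.6), and fentanyl male 5 the lowest for Sqle (25.4 CPM, the others 33.1 to 37.6).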

How the results depend on the processing

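Under RLE factors each count of calls given here stayed within 1.5 times its value. So did those for exposure, its difference between the sexes and sex with no filter on low counts. With no sex term this held over both sexes, the only comparison refitted so. The number sets and fentanyl males against each set were not refitted without the filter, with DESeq2 or with voom. Genes called over both sexes numbered 87 with DESeq2, 1031 with voom, 1226 without saline males 1 and 2, 4 without saline males 9 to 12 and 37 with myelin and astrocyte means as covariates, and in males they numbered 43, 87, 71, 955 and 16 under those settings. In females they numbered 20 with DESeq2, 14 and 495 without the 2 saline sets, and 1 with myelin and striatal means, and for the difference between the sexes 4 with DESeq2 and 2859 without saline males 9 to 12. Members called numbered 2 with voom and 4 without saline males 1 and 2 over both sexes. They numbered 1 with voom in males and, without saline males 9 to 12, 3 in males, 3 in females and 7 for the difference. Without saline males 9 to 12, members below 0 numbered 8 over both sexes (median 0.036), 6 in males (median 0.12) and 9 for sex, and the median was -0.25 for the difference. In males the median was -0.11 without saline males 1 and 2. With myelin and striatal means, 10 members were below 0 in females (median 0.051) and 9 for the difference (median 0.053). With myelin and astrocyte means these were 11 (median 0.013) and 9 (median 0.11). Single members over both sexes changed sign as follows, none of them called in the main comparison, and the cause was not tested. With voom: Mvd -0.018, Hsd17b7 0.050, Ebp -0.055, Abcg1 0.0022 and Nr1h2 -0.16. Without saline males 1 and 2: Ebp -0.030, Srebf2 -0.011 and Nr1h2 -0.063. Without saline males 9 to 12: Acat2 0.057, Pmvk 0.12, Idi1 0.021, Fdps 0.042, Fdft1 0.044, Sqle 0.14, Lss 0.18, Cyp51 0.034, Msmo1 0.0091, Dhcr7 0.043, Insig1 0.22 and Abcg1 0.029. With myelin and striatal means: Acat2 0.090, Hmgcs1 0.027, Pmvk 0.030, Fdps 0.040, Fdft1 0.087, Sqle 0.17, Lss 0.080, Ebp -0.044, Sc5d 0.032, Dhcr7 0.012, Insig1 0.20, Scap -0.029, Stard4 -0.085 and Nr1h2 -0.038. With myelin and astrocyte means: Sqle 0.018, Ebp -0.017, Insig1 0.036, Abcg1 0.056 and Nr1h2 -0.014. With 1 library left out at a time, no member was called over both sexes, in males, in females, for their difference or for sex. Genes called then ranged from 9 (without fentanyl male 6) to 29 (without saline male 2) over both sexes, 4 to 9 in males, 0 to 5 in females and 0 to 5 for the difference. They ranged from 193 (without saline male 2) to 4229 for the number sets, and for fentanyl males from 21 to 1202 against saline males 1 and 2 and from 7 to 240 against saline males 9 to 12. Members called ranged from 1 to 8, 0 to 4 and 0 to 1 in these 3, and members below 0 in males from 11 to 21. Members that changed sign with 1 library left out ranged from -0.051 to 0.033 (Abcg1), -0.021 to 0.071 (Ebp), -0.077 to 0.0045 (Hsd17b7), -0.16 to 0.028 (Insig1), -0.053 to 0.063 (Nr1h2), -0.0031 to 0.030 (Nsdhl), -0.19 to 0.014 (Pmvk), -0.077 to 0.018 (Sqle) and -0.037 to 0.048 (Srebf2). With a replicate block 2 genes were called over both sexes, 3 in males and 0 in females, and no member in any of them. The replicate numbers of the titles, which the block used, showed no pairing of the males. Males of the same replicate number deviated together with correlations of -0.07 to 0.21, and only male replicate 3 correlated best with its own. In females the value was -0.17 for both pairs. The 2 females of a group deviate in mirror image from their mean, so this value cannot show whether they pair. Of these pairs only male replicates 1 and 2 share a library number too (0.21 and 0.02). Groups of 2 females and a library number shared with exposure limit what the females can show.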
